A study of Arabidopsis thaliana with 10 samples.

Results

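Described here are 8 Arabidopsis autophagy genes, the ATG8 paralogues ATG8B, ATG8C, ATG8D, ATG8E, ATG8F, ATG8G and ATG8H and ATG3, which encodes the enzyme that conjugates them. They were taken by name, as the probe sets that name only 1 of these genes in the array's annotation, which gave 8 probe sets of the 22746 analysed. The names were chosen with earlier results of these data known. Counts among the 8 are therefore set beside the share over all probe sets as a description only. All 8 symbols matched the RefSeq gene table. The loci are AT4G04620 (ATG8B), AT1G62040 (ATG8C), AT2G05630 (ATG8D), AT2G45170 (ATG8E), AT4G16520 (ATG8F), AT3G60640 (ATG8G), AT3G06420 (ATG8H) and AT5G61500 (ATG3). ATG8A and ATG8I, which the annotation lists under the older names APG8A and APG8H, are set beside them further on.

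Autophagy delivers cytoplasm to the vacuole inside double-membraned autophagosomes, and leaves use it to recycle their contents when carbon or nitrogen runs short and during senescence. ATG8 is the small ubiquitin-fold protein that is attached to the lipid phosphatidylethanolamine on the growing autophagosome membrane, where it also recruits cargo receptors. The protease ATG4 trims the ATG8 tail, ATG7 activates the protein, ATG3 is the conjugating enzyme that passes it to the lipid, and a complex of ATG12, ATG5 and ATG16 promotes that last step. Arabidopsis has a family of ATG8 genes, lettered A to I, and a single ATG3 gene.

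The arrays measured pooled leaf RNA of Arabidopsis thaliana Columbia, 5 arrays from 35S:PAP1 plants, in which a constitutive viral promoter drives the anthocyanin regulator PAP1, and 5 from plants with an empty vector. Each line had 1 array on each of days 1, 2, 7, 8 and 12 and no replicate of a day, and no age is given in the labels. The regime of each day was read from the series text as mild and bright on day 1 (22 °C, light of 440 µmol per square metre and second), warm and dim on days 2 and 7 (30 °C in the light period, 150 in the same light unit) and cool and bright on days 8 and 12 (15 °C, again 440). Plant age differs in every contrast of days and cannot be told apart from the regime, nor can temperature and light where both changed. As read, days 1, 8 and 12 share the light, and days 2 and 7, like days 8 and 12, share temperature and light. Within a shared regime, plant age and time in that regime cannot be told apart. The control label Hex was read as the empty vector, and nothing says how many transgenic plants or insertions either line stands for. The level of PAP1 itself was not analysed here. All values below are log2 RMA values, in which 1 unit is a 2-fold difference, and a level is not compared between probe sets.

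Some arrays stood apart on control probes. On day 7 the median of the poly-A controls, which track the labelling, was 3.85 for 35S:PAP1 and 3.8 for the empty vector, against 6.9 to 7.5 on the other 8 arrays. The actin 5′ minus 3′ difference, lower in broken RNA, was -2.5 on the 35S:PAP1 array of day 2 and -1.5 to -1.2 elsewhere. The lines correlated at 0.973 on day 7 and at 0.986 to 0.991 on the other days. Of 4 leaf genes measured as markers, RCA (Rubisco activase) read 13.6 to 13.8 over the arrays, and the light-harvesting genes LHCB4.1, LHCB4.2 and LHCB4.3 ranged over 12.1 to 13.6, 9.6 to 13.1 and 6.7 to 11. Of the root genes PYK10 read 4.1 to 5.1 and EXPA7 3.5 to 3.9, and the seed coat gene BAN read 3.3 to 3.7. The highest reading of EXPA7 and BAN, 3.9, was taken, with the data known, as the limit at or below which a reading gives only a bound. PYK10, which read up to 5.1, was not used for it, so the bounds below hold for this limit only. Of the 80 readings of the 8 genes, 3 lay there.

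The clearest movement of the ATG8 genes came on day 8, the first day read as cool and bright. All 8 genes fell against day 7 in both lines, and all 8 rose again by day 12. For 7 of the 8, every gene but ATG8B, both day 8 arrays lay below the other 8 arrays, as was so for 10.6% of all probe sets. ATG8E moved most at both steps, but in the comparison of pairs below it was not called different from ATG8F at either. The widest line gap fell on day 7 for ATG8E and ATG8F, and on day 1 or 2 for the other 6.

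ATG8E had the widest range of the 8 genes, 4.1 units over the 10 arrays. The 35S:PAP1 arrays read 6.2, 7.9, 5.4, 3.8 and 6.3 on days 1, 2, 7, 8 and 12. The empty vector arrays read 6.3, 7.8, 6.8, 3.9 and 6.8 on the same days. Both lines were thus highest on day 2 and lowest on day 8, where the reading was no higher than in a gene not expected in leaves, and day 7 was the only day on which the lines were more than 0.5 apart.

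ATG8F followed the same course over a range of 2.8 units. It read 9.7, 10.6, 9.3, 7.9 and 9.8 in 35S:PAP1 leaves and 9.9, 10.4, 10.1, 7.8 and 9.8 in empty vector leaves, in day order. The day 8 arrays were far below the rest in both lines, and day 12 was within 0.1 of day 1. ATG8H, whose product, unlike most ATG8 proteins, already ends at the glycine that is joined to the lipid, read 5.6, 6.2, 4.6, 3.8 and 5.5 in 35S:PAP1 leaves and 5.0, 5.8, 5.1, 4.0 and 5.7 in empty vector leaves. In both lines it was highest on day 2, lower on day 7 and lowest on day 8.

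ATG8C read 7.8, 8.8, 8.1, 7.0 and 8.3 in 35S:PAP1 leaves and 8.3, 8.8, 8.4, 6.9 and 8.2 in empty vector leaves. It too was highest on day 2 and lowest on day 8 in both lines. ATG8D was flat until day 8, with 7.9, 8.2, 7.8, 7.0 and 8.0 in 35S:PAP1 leaves and 8.0, 7.9, 7.8, 6.9 and 8.2 in empty vector leaves. ATG8G had the narrowest range, 1.1 units, with 6.3, 7.0, 6.7, 5.9 and 6.7 in 35S:PAP1 leaves and 6.6, 6.5, 6.6, 6.0 and 6.9 in empty vector leaves. In both genes the day 8 arrays lay below all others, and the rest kept to a narrow band.

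ATG8B was the exception in shape, being lowest on day 1 in both lines. It read 5.9, 7.3, 7.6, 6.4 and 7.1 in 35S:PAP1 leaves and 6.4, 7.3, 7.4, 6.5 and 7.3 in empty vector leaves. Its day 8 arrays lay above the day 1 array of the same line. The conjugating enzyme gene ATG3 read 7.8, 8.2, 8.4, 7.2 and 7.9 in 35S:PAP1 leaves and 8.1, 8.3, 8.3, 7.4 and 7.9 in empty vector leaves. In each line its warm dim days lay above all of its bright days.

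**Figure D1:**
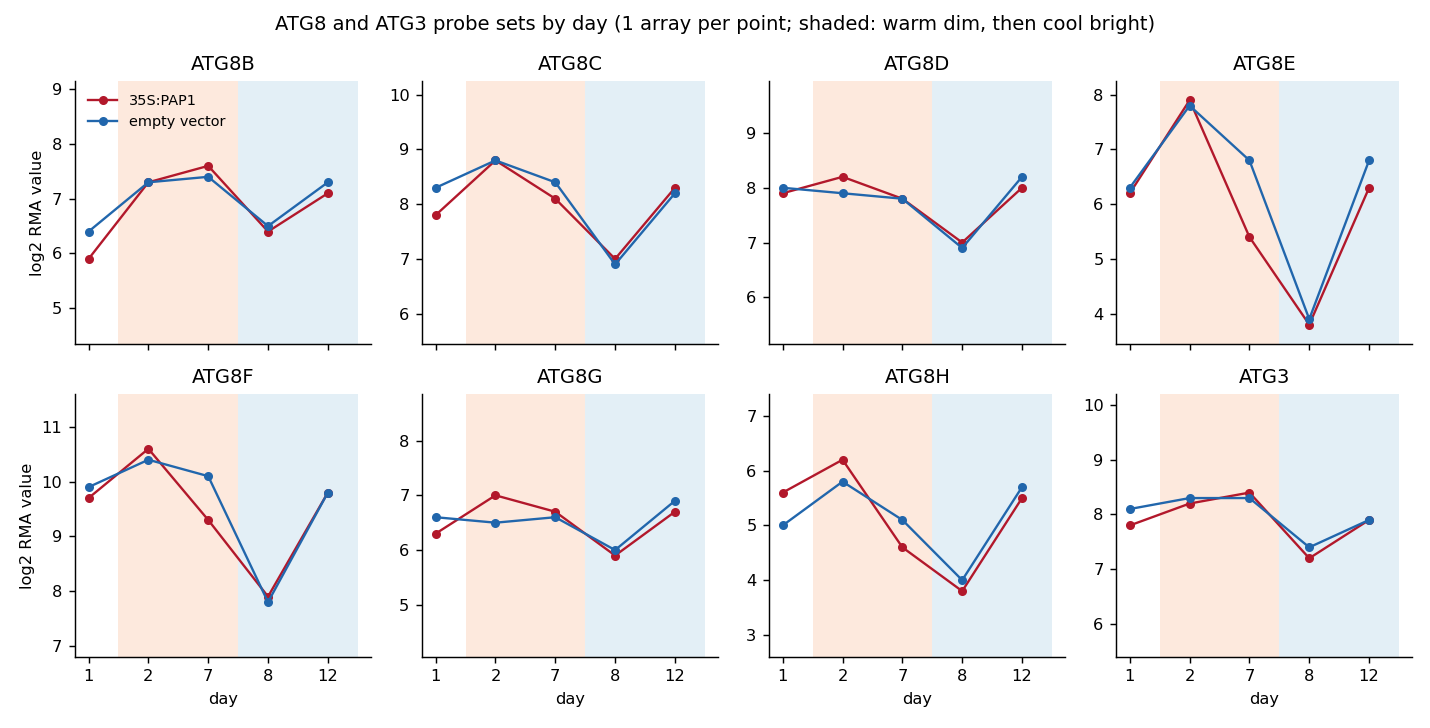
Log2 RMA values of the 8 probe sets (y axis, each panel spanning the same number of units) against day (x axis, evenly spaced, not to scale in time), with 35S:PAP1 in red and the empty vector in blue. Each point is 1 array, days 2 and 7 are shaded as warm dim and days 8 and 12 as cool bright. Day 8 is the lowest point of each line for every gene but ATG8B, which is lowest on day 1.

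Day changes were tested with limma over all 22746 probe sets in 1 model with line and day, and a gene was called at a Benjamini-Hochberg adjusted p under 0.05. Each day rests on 2 arrays, 1 per line, so a p-value reflects the spread among these arrays only, and neighbouring contrasts share a day. In bulk leaf RNA, fewer cells of a type and less RNA per cell cannot be told apart.

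On day 2 against day 1, the first day of warm dim growth, 3 ATG8 paralogues were called higher. ATG8B rose by 1.15 ± 0.18 (SE, 2.22-fold, adjusted p = 0.0120), ATG8E by 1.60 ± 0.33 (3.03-fold, adjusted p = 0.0272) and ATG8C by 0.75 ± 0.18 (1.68-fold, adjusted p = 0.0418). These 3 of 8 compare with 4.44% of all probe sets called higher. ATG8F and ATG8H gave 0.70 each (adjusted p = 0.103 and 0.139), ATG8G and ATG3 gave 0.30 each, and ATG8D gave 0.10. The median of the 8 was 0.70, against -0.05 over all probe sets.

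The day 2 calls depend on single arrays. ATG8B changed by 1.4 in 35S:PAP1 leaves and 0.9 in empty vector leaves, ATG8C by 1.0 and 0.5, and ATG8E by 1.7 and 1.5, in that order of lines. Without the 35S:PAP1 array of day 2, the one with the low actin difference, limma called 0 of the 8 and 0 of all probe sets, and the unadjusted p was under 0.05 for 3 and 3842. The count was also 0 without any other array of days 1 or 2 (0 to 677 over all probe sets, against 2260 with all arrays), and 1 (ATG8B) without any array of days 8 or 12 (953 to 1253). Of the markers LHCB4.2 rose by 0.90 and LHCB4.3 fell by 2.3, and the root markers gave 0.15 and 0. With each array centred on its median it was 2, ATG8B and ATG8E.

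Day 7 was set against day 2, the end of warm dim growth against its start. Here limma called 0 of the 8 (0.0747% of all probe sets were called), with an unadjusted p under 0.05 for 4. ATG8E gave -1.75 ± 0.33 (adjusted p = 0.144), ATG8H -1.15, ATG8F -0.80 and ATG8C -0.55, while ATG8B gave 0.20 and ATG3 0.10. ATG8E changed by -2.5 in 35S:PAP1 leaves and by -1.0 in empty vector leaves. Without the empty vector array of day 7, ATG8E was called lower, but more of all probe sets were called as well. Day 7 then rests on the 35S:PAP1 array alone, so nothing is concluded from that call.

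Day 7 against day 1, a contrast added after seeing the data, left ATG8B as the 1 gene called, higher by 1.35 ± 0.18 (2.55-fold, adjusted p = 0.00750), where 4.42% of all probe sets were called higher. Its reading on the day 7 arrays was 7.6 in 35S:PAP1 leaves and 7.4 in empty vector leaves, against 5.9 and 6.4 on day 1. ATG3 gave 0.40 (adjusted p = 0.122), and the other members lay between -0.45 and 0.20. The root gene PYK10 rose by 0.60 (adjusted p = 0.0423) and the leaf gene LHCB4.3 fell by 3.7 in this contrast, and their part was not tested.

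On day 8 against day 7 all 8 genes fell, where 12.5% of all probe sets were called lower. ATG8E fell by 2.25 ± 0.33 on the log2 scale (at least 4.59-fold with readings under the limit raised to it, adjusted p = 0.00285), ATG8F by 1.85 ± 0.23 (3.61-fold, adjusted p = 0.00170) and ATG8C by 1.3 ± 0.18 (2.46-fold, adjusted p = 0.00234). ATG8B and ATG3 each fell by 1.05 (2.07-fold, adjusted p = 0.00491 and 0.00212). ATG8H, with 1 of its 2 day 8 readings under the limit, fell by 0.95 (at least 1.87-fold), ATG8D by 0.85 and ATG8G by 0.70 (adjusted p = 0.0353, 0.00648 and 0.0394). The median of the 8 was -1.05, against 0.05 over all probe sets.

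Both lines took part in the day 8 fall, with changes of -1.6 in 35S:PAP1 leaves and -2.9 in empty vector leaves for ATG8E, and of -1.4 and -2.3 for ATG8F. For the other 6 the line changes differed by at most 0.4. With each array centred on its median 6 of 8 were called, ATG8G and ATG8H being lost, and without the empty vector array of day 8 there were 4 (ATG8C, ATG8E, ATG8F and ATG3), while over all probe sets, in both directions, 2191 were called in place of 5423. The day 7 arrays are those with low poly-A controls. Day 8 against day 1, a contrast added after seeing the data whose difference uses no day 7 array, called 6 of 8 lower, where 8.01% of all probe sets were called lower. There ATG8E fell by 2.4 (at least 5.10-fold), ATG8F by 1.95, ATG8H by 1.40 (at least 2.55-fold), ATG8C by 1.10, ATG8D by 1.00 and ATG3 by 0.65, while ATG8G gave -0.50 (adjusted p = 0.153) and ATG8B 0.30 (adjusted p = 0.342).

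Some of the markers changed in these contrasts too. On day 8 against day 7, 2 of the 4 leaf genes were lower and 1 higher: LHCB4.1 fell by 1.15, LHCB4.2 by 3.0, and LHCB4.3 rose by 2.1 (adjusted p = 0.000979, 0.000226 and 0.00893), and RCA gave -0.05. The root gene PYK10 read 4.1 in 35S:PAP1 leaves and 4.3 in empty vector leaves on day 8, against 4.9 and 5.1 on day 7, a fall of 0.80 (adjusted p = 0.00648). EXPA7 gave 0.20 and BAN 0.05. On day 8 against day 1 LHCB4.2, LHCB4.3 and LHCB4.1 fell by 2.5, 1.6 and 1.3, and PYK10 gave -0.20 (adjusted p = 0.449). The part of these markers in the ATG8 changes was not tested.

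On day 12 against day 8, within the regime read as cool and bright, all 8 genes rose, where 10.7% of all probe sets were called higher. ATG8E rose by 2.70 ± 0.33 (at least 6.28-fold, adjusted p = 0.00181), ATG8F by 1.95 ± 0.23 (3.86-fold, adjusted p = 0.00177) and ATG8H by 1.70 ± 0.26 (at least 3.14-fold, adjusted p = 0.00438). ATG8C rose by 1.3, ATG8D by 1.15, ATG8G by 0.85, ATG8B by 0.75 and ATG3 by 0.60 (adjusted p between 0.00251 and 0.0229). The count was 5 without either 35S:PAP1 array of days 8 or 12 or the empty vector array of day 8, and 4 without the empty vector array of day 12, and ATG8C, ATG8D, ATG8E and ATG8F were called in each of these fits. Over all probe sets 1429 to 2801 were called there, against 4586 with all arrays. Of the leaf markers LHCB4.2, LHCB4.3 and LHCB4.1 rose by 2.45, 1.4 and 1.05 and RCA gave 0, while PYK10 gave 0.05 (adjusted p = 0.864), and their part was not tested.

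Day 12 against day 1, also added after seeing the data, compares the end of the cool bright period with the mild bright start. ATG8B was higher by 1.05 ± 0.18 (2.07-fold, adjusted p = 0.0288), 1 of 8 where 1.49% of all probe sets were called higher. ATG8F gave 0 and ATG3 -0.05, and the other 5 lay between 0.15 and 0.35 with adjusted p of 0.412 or more.

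**Figure D2:**
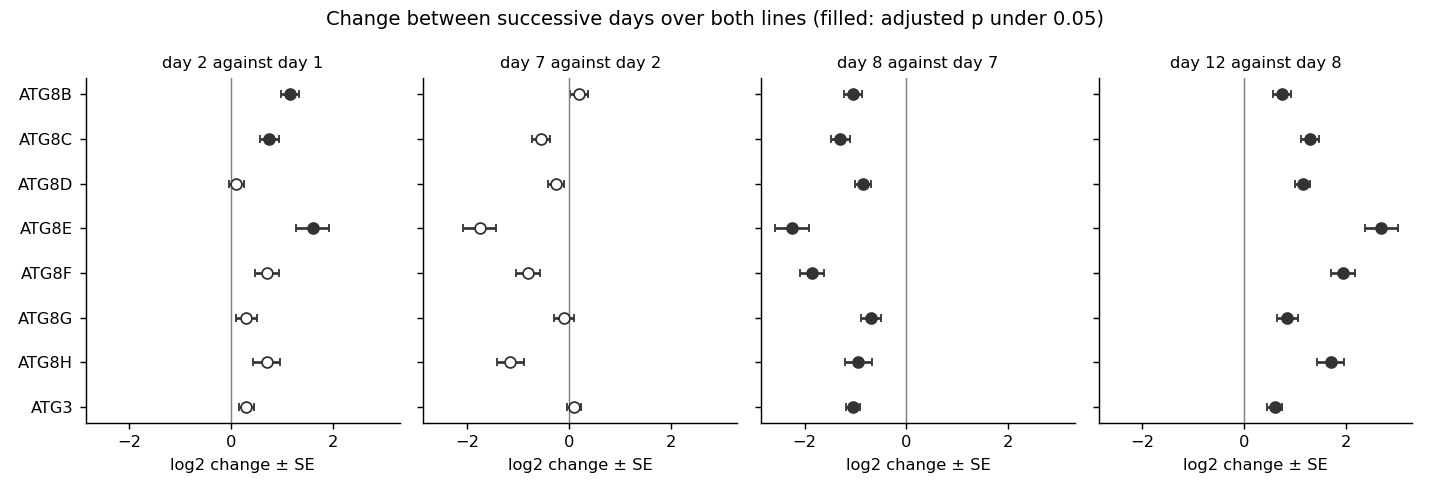
Log2 change ± SE of the 8 genes (rows) in the 4 contrasts of successive days (panels), over both lines with 2 arrays a day. Filled circles passed the adjusted threshold. All 8 lie left of 0 on day 8 against day 7 and right of it on day 12 against day 8, with ATG8E farthest out in each.

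Averaged over regimes, warm dim days (2 and 7) were set against bright days (1, 8 and 12). ATG8E was higher by 1.43 ± 0.21 (adjusted p = 0.00231, with the day 8 readings at the limit), ATG8F by 0.95, ATG8B by 0.80, ATG8C by 0.78 and ATG3 by 0.58 (adjusted p between 0.00195 and 0.00307). These 5 of 8 compare with 14.8% of all probe sets called higher. ATG8H gave 0.49, ATG8G 0.30 and ATG8D 0.26 (adjusted p = 0.0649, 0.126 and 0.0892). Of the markers, PYK10 was higher by 0.49 (adjusted p = 0.00625), LHCB4.2 by 1.55 and LHCB4.1 by 0.49, LHCB4.3 gave -2.4 (called lower) and RCA -0.017, and their part was not tested. Set against day 1 alone, only ATG8B of the 8 was called, with 3206 of all probe sets. Set against days 8 and 12 alone, 7 were called, with 6739 of all, against 6765 of all for the 3 bright days together. With the day 2 and day 7 arrays of 35S:PAP1 left out, which was decided with the data in view, 2 were called, ATG8E and ATG8F, with 3491 of all probe sets. With the days of a single line as replicates, limma called 0 of the 8 and 0 of all probe sets in either line. The unadjusted p was under 0.05 for 2 of the 8 and 3016 of all in 35S:PAP1 leaves, and for 0 and 3835 in empty vector leaves.

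The lines were compared with the day as a block. Of the 8 genes limma called 0 (0.0791% of all probe sets were called), and 0 had an unadjusted p under 0.05. The largest difference was that of ATG8E, -0.40 ± 0.21 for 35S:PAP1 minus empty vector (adjusted p = 0.722), with a 95% interval of -0.88 to 0.08. The other 7 differences lay between -0.14 and 0.02, and their 95% intervals between -0.48 and 0.41, so differences of that size are not excluded. A fit without the day as a block also gave 0 calls.

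Day 7 held the widest line differences of ATG8E and ATG8F. ATG8E was 1.4 lower, ATG8F 0.8 lower, ATG8H 0.5 lower and ATG8C 0.3 lower on the 35S:PAP1 array of that day, whereas ATG8B was 0.2 higher, ATG8G and ATG3 0.1 higher and ATG8D equal. These rest on 1 array per line, and both day 7 arrays had low poly-A controls. Over all probe sets the lines also correlated least on that day (0.973). On day 1, 7 of the 8 read lower in 35S:PAP1 leaves and ATG8H read 0.6 higher, and on day 2, 5 read higher, 1 lower and 2 equal. The share of all probe sets lower or higher on a single day was not counted, so these counts are not read as particular to the 8. No single-day difference could be tested, and the contrast of warm dim with bright days in the line difference gave 0 calls among the 8 and 0 over all probe sets, with unadjusted p under 0.05 for 1 and 2052. ATG8E gave -0.42 ± 0.43 there (adjusted p = 0.790).

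**Figure D3:**
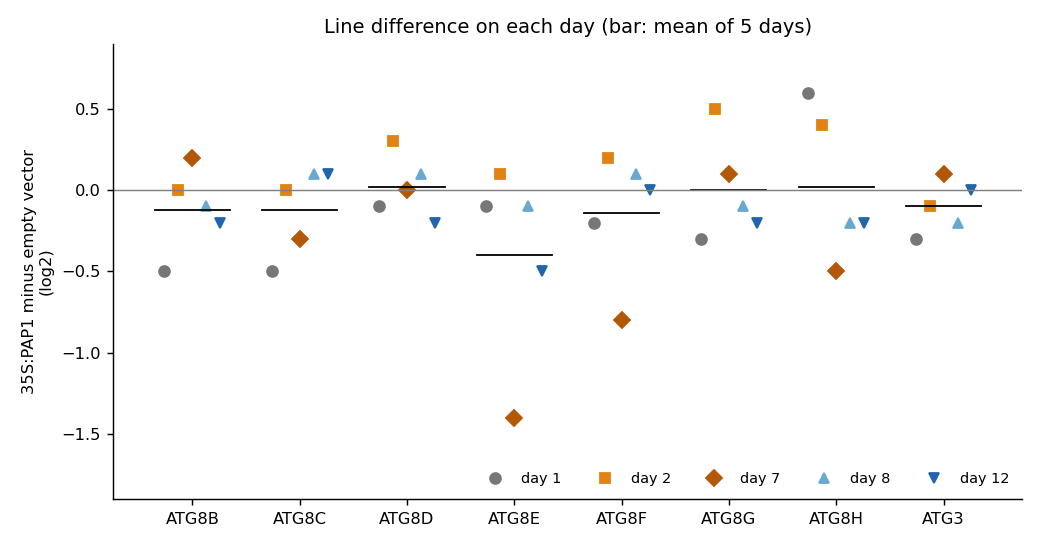
Difference of 35S:PAP1 minus empty vector in log2 units (y axis) for each gene (x axis), with 1 symbol per day and a black bar at the mean of the 5 days. The lowest symbols are those of day 7 for ATG8E (-1.4) and ATG8F (-0.8), and each gene's other days lie within 0.6 of 0.

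The paralogues were then compared with each other by their changes. In a test added after seeing the data, the value of 1 gene was taken from every probe set on each array and the same model was fitted over all probe sets, and a pair counted as different where its adjusted p was under 0.05 with either gene taken away. How often other probe sets differ from these genes in this test was not counted. Whether the pair counts below are unusual for this array is thus not known. On day 8 against day 7, 10 of the 28 pairs differed. ATG8E, whose day 8 readings were at the limit, fell by more than ATG8G by at least 1.5, than ATG8D by at least 1.35, and than ATG8B and ATG3 by at least 1.15 each (adjusted p between 0.00173 and 0.0150, the higher of each pair's values). ATG8F fell by more than ATG8G by 1.15, than ATG8D by 1.0 and than ATG8B and ATG3 by 0.80 each. These sizes are means over both lines, and the gaps were narrower in 35S:PAP1 leaves. There ATG8E changed by -1.6 and ATG8F by -1.4, against -1.2 for ATG8B and ATG3 and -0.8 for ATG8D and ATG8G. In empty vector leaves ATG8E changed by -2.9 and ATG8F by -2.3, against -0.9 for ATG8B, ATG8D and ATG3 and -0.6 for ATG8G. The other 2 pairs set ATG8E and ATG8F against ATG8H, whose own fall is only a bound, so no size or order is given for them. ATG8E and ATG8F were not called different from each other or from ATG8C.

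On day 12 against day 8, 15 of 28 pairs differed. ATG8E rose by more than ATG8C, ATG8D, ATG8G, ATG8B and ATG3, by at least 1.35 (ATG8C) to at least 2.05 (ATG3). ATG8C, ATG8D and ATG8F rose by more than ATG3 by 0.70, 0.55 and 1.35, and ATG8H by at least 1.05. ATG8F also rose by more than ATG8B, ATG8G and ATG8D, by 1.2, 1.1 and 0.8. ATG8H rose by more than ATG8B and ATG8G, by at least 0.9 and 0.8. The pair of ATG8E and ATG8H was called too, but both rest on readings at the limit and no order is given. ATG8E and ATG8F were not called different from each other. On day 2 against day 1, 5 of 28 pairs differed: ATG8E against ATG8D, ATG8G and ATG3, and ATG8B against ATG8D and ATG3. Related ATG8 transcripts may bind each other's probes, which would bring their values closer, and this was not tested. The pair counts fell to 0 for day 8 against day 7 without the empty vector array of day 8, to 1 without that of day 7, and for day 2 against day 1 to 0 without either array of day 2 and to 3 or 2 without the 35S:PAP1 or the empty vector array of day 1. Without either array of day 7 the last count was 8. For day 12 against day 8 it was 9 with the 35S:PAP1 array of day 8 left out, 7 with that of day 12, 6 with the empty vector array of day 8 and 7 with that of day 12.

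Over the 10 arrays the profiles of the 28 pairs correlated with a median Pearson r of 0.828, between 0.327 and 0.978. These are descriptions over arrays that share day and line. ATG8E and ATG8F were most alike (0.978), followed by ATG8C and ATG8F (0.973) and ATG8C and ATG8E (0.957). ATG8B had the lowest values, 0.327 with ATG8H to 0.673 with ATG8G, whereas the 21 pairs without it ran from 0.613 to 0.978.

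**Figure D4:**
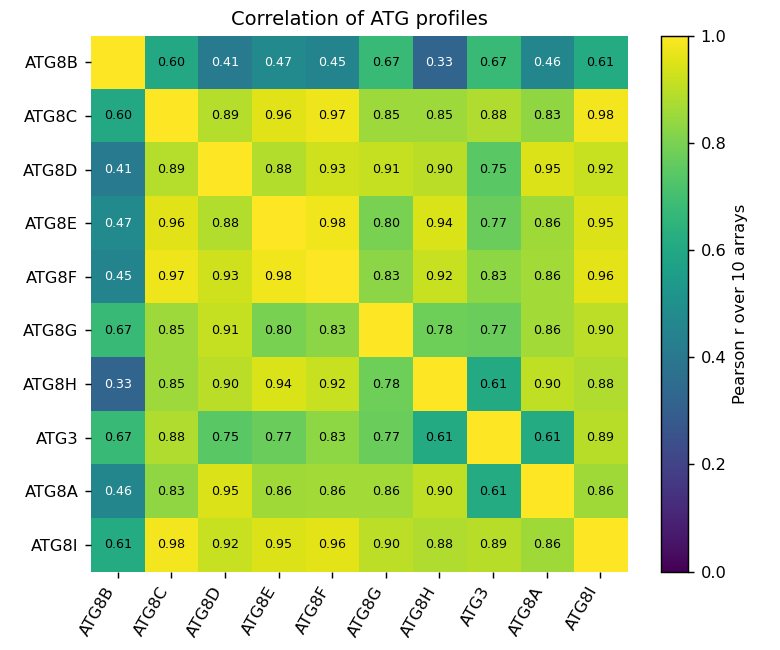
Pearson r between log2 profiles over the 10 arrays for the 8 genes and, as the last rows and columns, ATG8A and ATG8I. The row of ATG8B is the darkest, at 0.33 to 0.67, and ATG8C, ATG8E, ATG8F and ATG8I form the brightest block, at 0.95 to 0.98.

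Among 5275 other probe sets that name 1 gene and range over at least 1 unit, those most like the 3 widest-ranging members were sought. For ATG8E these were AT1G22890 (r = 0.982), AT1G25275 (r = 0.978) and AT3G59950 (r = 0.977), the last of which is ATG4B, a protease that trims ATG8. For ATG8F they were PIP (AT2G14260, r = 0.993), BGLU16 (AT3G60130, r = 0.987) and AT1G25275 (r = 0.987). For ATG8H they were AT2G27580 (r = 0.983), AT1G78550 (r = 0.955) and AT5G04750 (r = 0.945).

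Other autophagy genes were read from a list of 30 core components, of which 9 had a probe set naming them alone. On day 8 against day 7, 7 of the 9 were called lower and 0 higher (median -0.70, against 0.05 over all probe sets). Of all probe sets 12.5% were called lower and 11.3% higher. ATG8A and ATG8I each fell by 1.10 (adjusted p = 0.00287 and 0.00181), ATG16, of the complex that promotes lipidation, by 0.85, and ATG4B by 0.70. Of the ATG1 kinase complex, which starts autophagosome formation, ATG101 fell by 0.80, ATG1C by 0.70 and ATG1A by 0.65, while ATG1B gave -0.45 (adjusted p = 0.0830) and ATG13B -0.05 (adjusted p = 0.876). ATG1C had 2 probe sets naming it alone. The one with the higher mean stands for it, and the other is not given here.

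The same 7 core genes rose on day 12 against day 8, by 0.60 (ATG16) to 2.05 (ATG8A), where 10.7% of all probe sets were called higher. The median was 0.90 over the 9, against -0.05 over all probe sets. ATG8A ended higher on day 12 than on day 1 by 0.80 (adjusted p = 0.0468). It read 8.5 in 35S:PAP1 leaves and 8.8 in empty vector leaves on day 12, and 7.9 and 7.8 on day 1. ATG8I read 8.8 to 10.5 over the 10 arrays, lowest on day 8 and highest on day 2 in both lines, and rose by 0.60 on day 2 against day 1 (adjusted p = 0.0401). On warm dim against bright days 3 of the 9 were called higher, ATG8I by 0.63, ATG16 by 0.55 and ATG4B by 0.44, where 14.8% of all probe sets were called higher. The median was 0.27 over the 9, against -0.025 over all probe sets. The lipidation genes ATG4A, ATG5, ATG7, ATG10, ATG12A and ATG12B were not analysed here, having no probe set that names them alone.

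Of 15 regulators and receptors 3 had a probe set. RAPTOR1, a subunit of the TOR kinase complex that holds autophagy back, was higher on warm dim than on bright days by 0.64 (adjusted p = 0.00235). It rose by 0.85 on day 7 against day 1 (adjusted p = 0.0171) and fell by 1.05 on day 8 against day 7 (adjusted p = 0.00253). It gave 0.20 on day 12 against day 8 (adjusted p = 0.421), while its paralogue RAPTOR2 fell by 0.55 (adjusted p = 0.0409). RAPTOR2 went the other way from RAPTOR1 on day 8 against day 7, with 0.45 (adjusted p = 0.0708). It was higher on day 8 than on day 1 by 0.60 (adjusted p = 0.0388), and gave -0.22 on warm dim against bright days (adjusted p = 0.147). SH3P2, a membrane-shaping protein of autophagosomes, gave -0.50 on day 8 against day 7 (adjusted p = 0.0657).

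Vacuolar proteases, which digest what autophagy delivers, gave 4 lower and 1 higher of 7 measured (11 listed) on day 8 against day 7, with a median of -1.15, against 0.05 over all probe sets, of which 12.5% were called lower and 11.3% higher. The cathepsin B-like genes CTB3, CTB1 and CTB2 fell by 1.65, 1.20 and 1.15, and GAMMA-VPE, the vacuolar processing enzyme of vegetative tissue, by 1.45. BETA-VPE, best known from seeds, rose by 3.75 ± 0.32 (13.5-fold, adjusted p = 0.000514). It read 8.7 on both arrays of day 8, against 5.3 in 35S:PAP1 leaves and 4.6 in empty vector leaves on day 7. By day 12 CTB3, CTB2 and GAMMA-VPE had risen against day 8 by 1.5, 0.90 and 0.85, and BETA-VPE had fallen by 1.25. On warm dim against bright days GAMMA-VPE and CTB1 were each higher by 0.83, CTB3 by 0.61 and CTB2 by 0.58, and BETA-VPE gave -2.43. In the line comparison limma called 0 of the 19 genes of these 3 lists, and 1 had an unadjusted p under 0.05 (ATG101, -0.28 ± 0.10, adjusted p = 0.677, named after its value was seen).

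**Figure D5:**
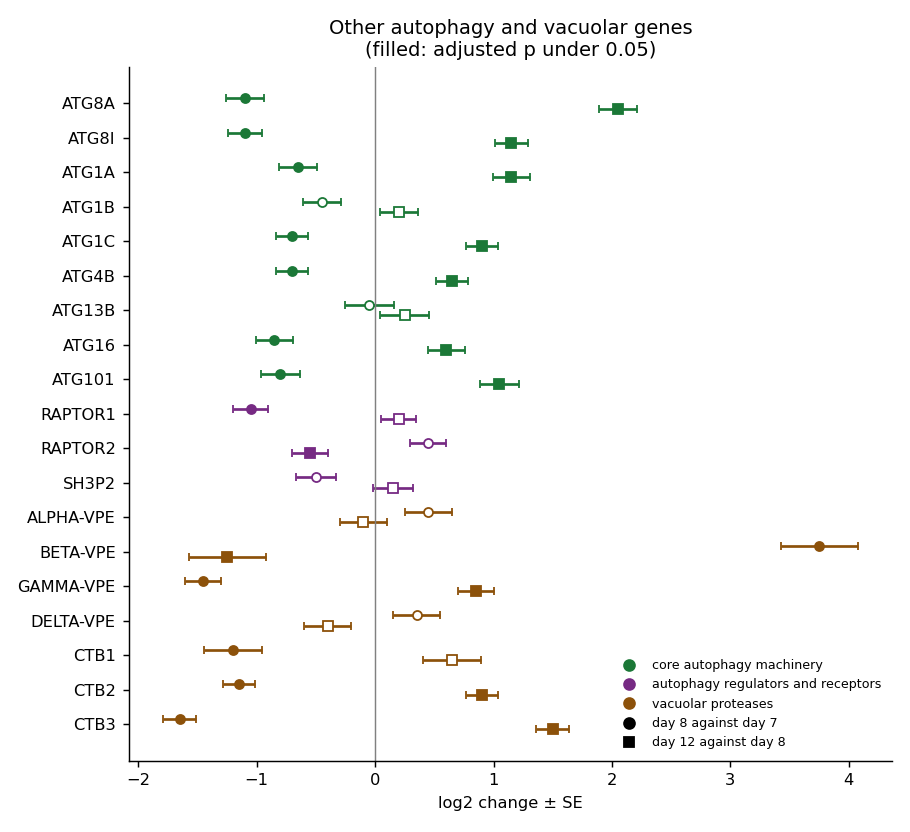
Log2 change ± SE (x axis) of the other autophagy genes and vacuolar proteases (rows) on day 8 against day 7 (circles) and day 12 against day 8 (squares), coloured by list, filled where the adjusted threshold was passed. Core genes fall to the left on day 8 and to the right on day 12, and BETA-VPE lies at 3.75 on day 8.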

How the data were processed

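Per the labels' protocols, total RNA of pooled leaves was biotin-labelled for Affymetrix arrays. The deposited table holds 1 log2 value per probe set and array. The submitters' processing notes name RMA, with no version or settings in the sources used here. Values carry 1 decimal and no detection call, and the number of arrays limits the precision. RMA fits each array to a shared distribution, so a change is relative to the other genes.

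From these values, 64 array controls were left out and 22746 probe sets fitted in R 4.3.3 by limma 3.58.1 (linear model with line and day, moderated variances, 4 residual degrees of freedom, 3 for the contrast of line differences). P-values were adjusted by Benjamini-Hochberg over all probe sets, and any size of change could be called at 0.05. The model was tested on simulated data. Alternatives were median centring, a mean of 5 or more, probe sets naming 1 gene, limma-trend, no day block, single lines, single bright regimes and leaving out arrays. Same-day arrays deviated together from their line's mean (r = 0.52, 0.77, 0.49, 0.84 and 0.75 on days 1, 2, 7, 8 and 12), and the day in the label pairs them.

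Members and lists were chosen with earlier results of these data known. All members were named, list genes where called or in lipidation, and the 3 probe sets most like each of the 3 widest-ranging members. List genes were matched by locus through Entrez identifiers, and 13436 of 13513 probe sets naming 1 gene matched. Unused sample columns numbered 0. No sequence or coordinate is given.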

Additional observations from a re-analysis of the deposited data

Results flagged for a closer look

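The empty vector reading of ATG8F on day 8, 7.8, lay far below the other 4 of its line (9.8 to 10.4), with a gap of 0.769 of the range of its line against a limit of 0.71. The 5 arrays of a line come from different days, 16 sets of 5 were examined, and chance alone marks about 1 set in 20.

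ATG8G read higher in 35S:PAP1 on both warm dim days (by 0.5 and 0.1) and lower on all 3 bright days (by -0.3, -0.1 and -0.2). The contrast of these differences was 0.50 ± 0.19, with an adjusted p = 0.517 over all probe sets by limma.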

How the results depend on the processing

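Of 32 called values of single genes, 0 changed direction under any alternative and 106 of 500 refits lost the call. Some of these refits coincide, since leaving out either array of a day can give the same fit. The line comparison gave 0 called genes with and without the replicate block of days, and under all 21 alternatives. For this comparison, leaving out either array of a day or the whole day is the same fit, so the alternatives are not all separate. For day 2 against day 1, leaving out 1 array gave 0 to 4 called genes, with 0 to 2749 of all probe sets called. Leaving out the day 2 and day 7 arrays of 35S:PAP1 gave 0 of the 8 and 0 of all. The range on leaving out 1 array was 0 to 1 for day 7 against day 2 (0 to 138 of all probe sets). It was 4 to 7 for day 8 against day 7 (2191 to 4970 of all) and 4 to 8 for day 12 against day 8 (1429 to 4723 of all). Without the day 2 and day 7 arrays of 35S:PAP1, day 8 against day 7 gave 4, with 3453 of all called. Warm dim against bright days gave 0 within 35S:PAP1, 0 within the empty vector, 1 against day 1 alone, 7 against days 8 and 12 alone, and 2 without the day 2 and day 7 arrays of 35S:PAP1. Over all probe sets the counts were 0, 0, 3206, 6739 and 3491 in that order. Leaving out 1 array or day gave 0 to 8, 0 to 12 and 6 to 16 differing pairs for days 2, 8 and 12 in that order. With the pair test, probe sets with a mean of 5 or more gave 11 of 15 pairs on day 12 and 7 of 10 on day 8.

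Values that changed sign were all uncalled in both fits, and the cause was not tested. Leaving out 1 array or day, the line difference ranged from -0.125 to 0.15 for ATG8H, -0.05 to 0.075 for ATG8D and -0.225 to 0.025 for ATG8F. Day 2 against day 1 ranged from -0.075 to 0.275 for ATG8D and -0.0125 to 0.6125 for ATG8G. Day 7 against day 2 ranged from -0.4125 to 0.2125 for ATG8G and -0.025 to 0.225 for ATG3. Day 7 against day 1 ranged from -0.0375 to 0.4375 for ATG8C, -0.775 to 0.475 for ATG8E and -0.5125 to 0.3125 for ATG8F. Day 12 against day 1 ranged from -0.0375 to 0.4375 for ATG8C, -0.0625 to 0.6625 for ATG8H and -0.175 to 0.075 for ATG3. The warm dim against bright contrast of the line difference ranged from -0.567 to 0.333 for ATG8H, -0.25 to 0.10 for ATG8C, -1.17 to 0.333 for ATG8E and -0.767 to 0.233 for ATG8F. Without the day 2 and day 7 arrays of 35S:PAP1, ATG8D gave -0.067 between lines and -0.083 on day 2, ATG8G -0.05 on day 2 and 0.10 on day 7 against day 2, and on day 7 against day 1 ATG8E gave 0.433 and ATG8F 0.283. ATG8D gave -0.025 for warm dim days against day 1 alone.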
